A study of Mus musculus with 6 samples.

Results

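This account covers 10 genes for mesenchymal transcription factors, chosen by name from a table of 55401 genes: Twist1, Twist2, Prrx1, Prrx2, Snai1, Snai2, Zeb1, Zeb2, Ebf1 and Tcf21. All 10 were found, and 9 were expressed enough to be tested. Messenger RNA was sequenced from mesenchymal stromal cells that had been flushed from the femur of C57/B6J mice and kept in culture. The libraries form 2 groups of 3, cells with an Nlrp3 knockout (NLRP3-/-) exposed to 3 µg/mL lipopolysaccharide (LPS) for 24 h, and wild-type (WT) cells exposed to the same LPS dose for the same time. Both groups thus carry the LPS stimulus, and cells without LPS were not analysed here, so the comparison is one of genotype under LPS. Nlrp3 encodes the sensor of an inflammasome, the complex that activates caspase-1. The sources used here do not give how the knockout allele was made, the age of the mice, or whether replicates are separate mice or cultures. The p-values thus rest on the spread among these 6 libraries, which may be technical, and a difference between starting cultures cannot be told apart from one between genotypes.

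Mesenchymal cells are held in their state by a small set of DNA-binding factors that are also used in development. Twist1 and Twist2 are basic helix-loop-helix (bHLH) factors that pair with E proteins and bind E-box sequences, and Id proteins block them by capturing those E proteins. Prrx1 and Prrx2 are paired-related homeobox factors of limb and craniofacial mesenchyme. Snai1, Snai2, Zeb1 and Zeb2 are zinc finger repressors, best known for switching off E-cadherin (Cdh1) in epithelial-mesenchymal transition. Ebf1 serves both B lymphocyte development and marrow stromal and adipocyte precursors, and Tcf21 marks mesenchyme of epicardium, kidney and lung.

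The upstream sequences of 3 members whose levels differed between the genotypes are shown, since the 2 Twist genes moved in opposite directions and Prrx1 fell. Each is the stretch before the RefSeq start (GRCm38.p6) that lies outside every GENCODE M21 transcript of the gene, written on the strand of the gene, and capitals mark the GC box (GGGCGG or CCGCCC) and the TATAAA hexamer (or TTTATA). The Twist1 stretch is chr12:33957421-33957670 on the plus strand, that of Twist2 is chr1:91801211-91801460 on the plus strand, and that of Prrx1 is chr1:163313711-163313900 on the minus strand. Transcripts of other genes were not considered, and the Twist2 stretch lies within the non-coding gene Gm29100 (91798528 to 91802937) on the other strand.
Twist1: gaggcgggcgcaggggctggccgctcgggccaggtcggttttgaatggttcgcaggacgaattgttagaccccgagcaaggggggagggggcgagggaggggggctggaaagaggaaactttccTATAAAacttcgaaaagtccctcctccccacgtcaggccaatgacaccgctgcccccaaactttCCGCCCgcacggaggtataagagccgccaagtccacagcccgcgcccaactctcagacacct
Twist2: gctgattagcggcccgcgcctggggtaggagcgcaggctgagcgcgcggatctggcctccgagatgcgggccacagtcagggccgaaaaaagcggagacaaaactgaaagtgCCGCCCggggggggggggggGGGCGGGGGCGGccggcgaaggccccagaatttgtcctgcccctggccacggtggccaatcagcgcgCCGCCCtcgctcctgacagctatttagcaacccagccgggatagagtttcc
Prrx1: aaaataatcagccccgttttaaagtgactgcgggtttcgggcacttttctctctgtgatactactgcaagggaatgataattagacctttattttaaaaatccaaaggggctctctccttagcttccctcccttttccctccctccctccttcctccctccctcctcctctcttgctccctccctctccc
RefSeq promoter entries were found for 8 of the 10 members, and those of Prrx2 and Ebf1 lie inside longer GENCODE transcripts and are not printed.

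The paralogs differed in their letters. The 250 bases of Twist2 hold 4 GC boxes, 2 of them directly adjoining, and 23 CpG, with a GC content of 68.8%. The 250 bases of Twist1 hold 1 GC box, 1 TATAAA and 18 CpG, with a GC content of 62.4%. The 190 bases of Prrx1 hold neither motif and 3 CpG, with a GC content of 48.9%. On both strands, a GC box occurred in 32.7% and TATAAA in 12.4% of 32851 RefSeq windows of 250 bases, and in 22.8% and 8.73% of windows of 190 bases. The median window of 250 bases held 6 CpG with a GC content of 52.4%, so both Twist stretches lay above it. For windows of 190 bases the medians were 4 CpG and 51.6%, near the values of Prrx1. No E-box (CANNTG) was present in any of the 3 stretches, against 66.2% of all windows of 250 bases and 57.3% of those of 190 bases. The form CAGGTG or CACCTG, which is itself a CANNTG, was likewise absent and occurred in 17.2% and 13.8% of windows. These are letter matches and not measured binding.

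The libraries summed to between 53.2 and 66.3 M estimated counts (M, 1e6), and levels are given below as FPKM, that is, fragments per kilobase of gene model and per M fragments. The targeted gene went with the labels: Nlrp3 had no estimated counts in any knockout library, against 730, 502 and 444 in WT replicates 1, 2 and 3 (exact two-sided permutation test, p = 0.1, the smallest that 3 against 3 can give; limma adjusted p = 0.000408). Nlrp3 passed the expression filter through the 3 WT libraries alone, so it had to be lower in knockout cells to be called. Knockout replicate 3 had the lowest mitochondrial share of counts, 1.77%, against 2.90% and 3.18% in the other knockout libraries and 2.31% to 2.47% in WT libraries. Cultured marrow can also hold macrophages. Of 27 macrophage markers 22 passed the expression filter, and all 22 were called higher in the knockout libraries, against 10.4% of all tested genes. The summed level of the 27 was 1783 to 2040 FPKM in knockout libraries and 771 to 877 FPKM in WT libraries. With 1 library left out, 17 to 20 of the 22 were called, and 1 of the 22, Aif1, passed the filter through the knockout libraries alone. Adgre1, which encodes F4/80, stood at 134 ± 2.78 FPKM in knockout cells and 44.0 ± 2.71 FPKM in WT cells (limma adjusted p = 2.90e-05), and none of the 27 was at 0 in all libraries. Of 21 stromal markers 18 were tested, of which 3 rose and 10 fell, 72.2% called against 19.6% of all tested genes. Of the 3, Nt5e passed the filter through the knockout libraries alone, and Cxcl12 was not called with any 1 library left out. In those fits 2 stromal markers were called higher and 8 to 10 lower. The summed level of the 21 was 2689 to 2914 FPKM in knockout libraries and 3744 to 4117 FPKM in WT libraries. Thy1, a surface marker of stromal cells, fell to 11.8 ± 1.19 FPKM in knockout cells, against 134 ± 6.22 FPKM in WT cells, and Nes, the nestin gene, rose to 33.7 ± 1.15 FPKM in knockout cells, against 11.1 ± 0.487 FPKM in WT cells. The part of these shifts in the results below was not tested, and in bulk RNA fewer cells of a type and less RNA per cell cannot be told apart.

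Of the 9 tested members, Twist1 and Prrx2 rose and Twist2, Prrx1 and Ebf1 fell in the knockout cells, while Snai1, Snai2, Zeb1 and Zeb2 did not pass the test (limma on log2(FPKM + 1), adjusted p below 0.05 over all 12136 tested genes). This share of 5 in 9 stands beside 19.6% of all tested genes called in either direction, 10.4% higher and 9.2% lower. The same 5 members were those whose knockout and WT values did not overlap, a separation seen in 36.7% of all tested genes. The median log2 fold change of the 9 was 0.04, against 0.01 for all tested genes. Both the Twist pair and the Prrx pair thus moved in opposite directions within the pair.

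**Figure D1:**
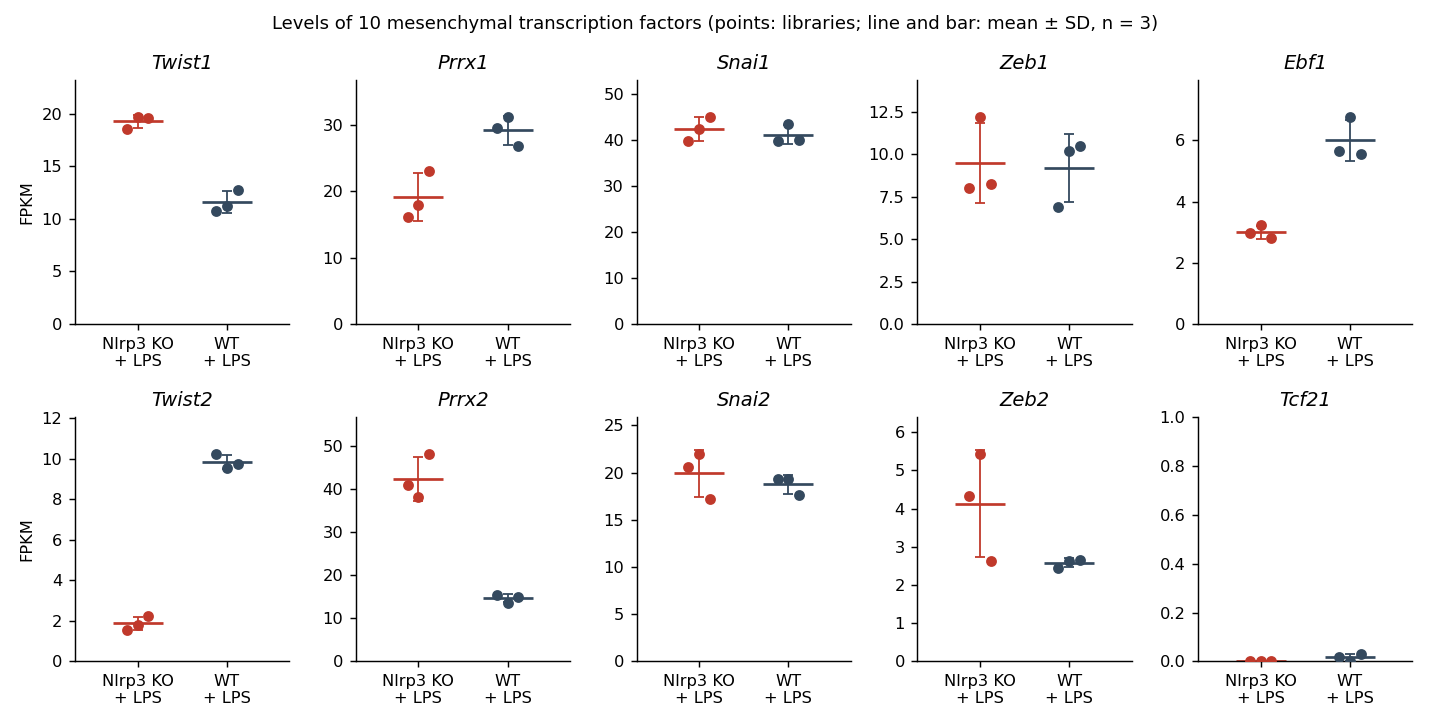
FPKM of each member (vertical axes, each with its own scale from 0) in 3 Nlrp3 knockout libraries (left, red) and 3 WT libraries (right, dark), all with LPS; points are libraries, lines and bars the mean and SD. Twist1 and Prrx2 sit higher and Twist2, Prrx1 and Ebf1 lower in the knockout libraries without overlap, and Tcf21 is at or near 0 throughout.

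Twist2, also known as Dermo1 for its role in dermis, showed the largest difference of the 9 tested members. Its level was 1.56, 1.82 and 2.23 FPKM in knockout replicates 1, 2 and 3, against 10.21, 9.53 and 9.72 FPKM in WT replicates. Every knockout library lay below every WT library, and the mean fell to 1.87 ± 0.338 FPKM in knockout cells, against 9.82 ± 0.351 FPKM in WT cells (SD, n = 3 each). The ratio of the means was 0.190, and the log2 fold change was -1.92 ± 0.10 (SE; limma adjusted p = 5.32e-05). Log2 fold changes are on the log2(FPKM + 1) scale unless another fit is named, and this scale understates low genes. The values rest on 349 to 464 estimated counts in knockout libraries and 1818 to 2220 in WT libraries. Twist2 (ENSMUSG00000007805, chromosome 1, 91801461 to 91848028, plus strand, GRCm38 as in the table) shares its span with 2 non-coding genes, Gm29100 on the other strand and Gm29101 on the same strand, neither above 0.25 FPKM in any library.

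Twist1, which is needed for cranial neural tube closure and limb mesenchyme, moved the other way. It stood at 18.53, 19.68 and 19.58 FPKM in knockout replicates 1, 2 and 3, and at 10.78, 11.22 and 12.75 FPKM in WT replicates. The groups did not overlap, and the mean rose to 19.3 ± 0.637 FPKM in knockout cells, against 11.6 ± 1.03 FPKM in WT cells, a ratio of 1.66 (log2 fold change 0.69 ± 0.08, limma adjusted p = 0.00134). Twist1 (ENSMUSG00000035799, chromosome 12, 33957671 to 33959829, plus strand) overlaps no other gene of the table.

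Within each library the Twist genes were also set against each other. Twist2 made up 7.77%, 8.47% and 10.2% of the summed Twist FPKM in knockout replicates 1, 2 and 3, against 48.6%, 45.9% and 43.3% in WT replicates. The sum of both was 21.1 ± 0.917 FPKM in knockout cells and 21.4 ± 0.932 FPKM in WT cells (SD, n = 3 each), with overlapping values (exact two-sided permutation test, p = 0.8). The log2 ratio of Twist2 to Twist1, with 1 FPKM added to each, was -2.83 ± 0.137 in knockout cells and -0.22 ± 0.144 in WT cells. The difference of -2.61 ± 0.11 (SE) gave p = 0.1 in the exact two-sided permutation test, the smallest value possible here. Twist2 lay just below Twist1 in each WT library and far below it in each knockout library.

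**Figure D2:**
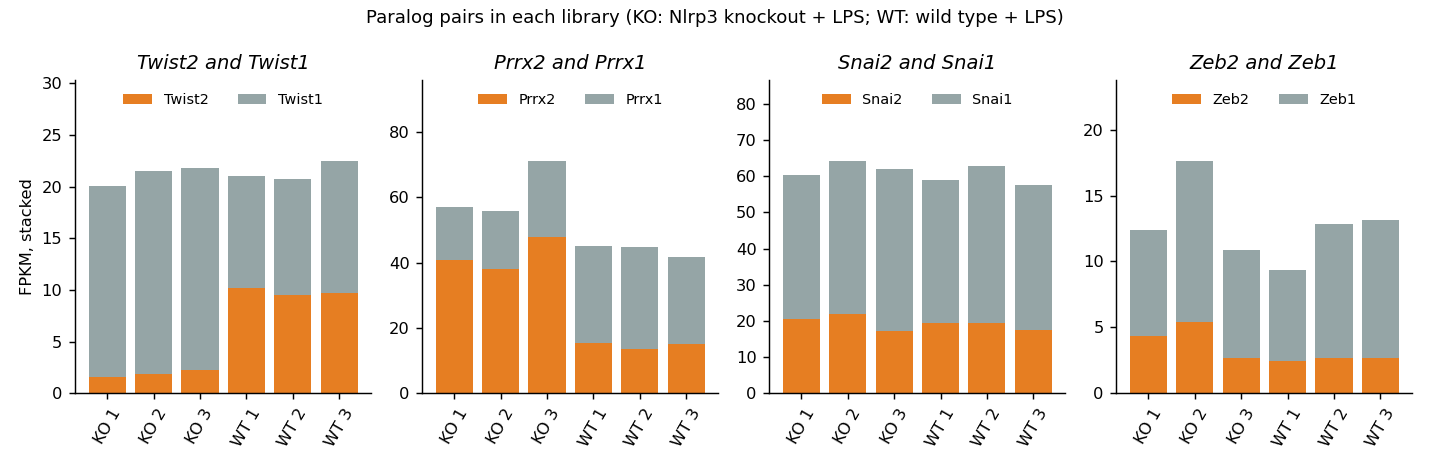
Summed FPKM of each paralog pair (vertical axes) in the 3 Nlrp3 knockout libraries (left) and 3 WT libraries (right), all with LPS, with the member numbered 2 in orange and the member numbered 1 in grey. The orange share is smaller for Twist2 and larger for Prrx2 in every knockout library, while the Twist sum stays between 20.1 and 22.5 FPKM.

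Prrx2 was the member with the largest increase. Its level was 40.81, 38.01 and 47.98 FPKM in knockout replicates 1, 2 and 3, against 15.42, 13.53 and 15.03 FPKM in WT replicates. Every knockout library exceeded every WT library by a wide margin relative to the spread, with means of 42.3 ± 5.14 FPKM in knockout cells and 14.7 ± 0.998 FPKM in WT cells, a ratio of 2.88 (log2 fold change 1.46 ± 0.10, limma adjusted p = 0.000181). Prrx2 (ENSMUSG00000039476, chromosome 2, 30834972 to 30881251, plus strand) overlaps no other gene of the table.

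Its paralog Prrx1, a broad marker of limb and marrow mesenchyme, fell by a smaller margin. Prrx1 had 16.17, 17.90 and 23.12 FPKM in knockout replicates 1, 2 and 3, against 29.55, 31.18 and 26.80 FPKM in WT replicates. Knockout replicate 3 came closest to the WT range without entering it. The means were 19.1 ± 3.62 FPKM in knockout cells and 29.2 ± 2.21 FPKM in WT cells, a ratio of 0.653 (log2 fold change -0.60 ± 0.13, limma adjusted p = 0.0234). The call was lost without knockout replicate 1 or 2 (adjusted p = 0.0678 and 0.0711), without WT replicate 1 or 2 (0.0796 and 0.0802), and with the replicate number as a block (0.0626), and it passed without knockout replicate 3 (0.00386) and without WT replicate 3 (0.0481). Prrx1 (ENSMUSG00000026586, chromosome 1, 163245119 to 163313710, minus strand) spans 2 minor non-coding genes, Gm20471 and Gm37644, at 0.25 FPKM or less.

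The Prrx pair changed its dominant member. Prrx2 made up 71.6%, 68.0% and 67.5% of the summed Prrx FPKM in knockout replicates 1, 2 and 3, against 34.3%, 30.3% and 35.9% in WT replicates. Their log2 ratio, Prrx2 over Prrx1 with 1 FPKM added to each, was 1.12 ± 0.145 in knockout cells and -0.95 ± 0.182 in WT cells, a difference of 2.06 ± 0.13 (SE; exact two-sided permutation test, p = 0.1, the smallest possible). Unlike the Twist sum, the Prrx sum did not overlap between groups: it was 61.3 ± 8.48 FPKM in knockout cells and 43.8 ± 1.74 FPKM in WT cells (exact permutation test, p = 0.1).

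Snai1, which is both a developmental repressor and an early-response gene, had the highest mean FPKM of the 10 members in each genotype. It measured 39.76, 42.29 and 44.94 FPKM in knockout replicates 1, 2 and 3, and 39.76, 43.41 and 40.03 FPKM in WT replicates. The groups overlapped throughout, and the log2 fold change of 0.04 had a 95% interval of -0.13 to 0.22 (limma adjusted p = 0.743). Snai2, also called Slug, measured 20.63, 21.94 and 17.17 FPKM in knockout replicates and 19.31, 19.34 and 17.61 FPKM in WT replicates. Its log2 fold change was 0.08 with an interval of -0.17 to 0.32 (limma adjusted p = 0.659), again with overlapping groups. The log2 ratio of Snai2 to Snai1 differed by 0.03 ± 0.15 (SE) between the genotypes (exact permutation test, p = 0.8), and neither gene nor their ratio separated the groups. Snai1 (ENSMUSG00000042821, chromosome 2, 167538195 to 167542814, plus strand) and Snai2 (ENSMUSG00000022676, chromosome 16, 14705852 to 14709385, plus strand) overlap no other gene of the table. The remaining Snail gene, Snai3, had no counts in any library.

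Zeb1 varied within both groups. It had 8.03, 12.20 and 8.25 FPKM in knockout replicates 1, 2 and 3, and 6.88, 10.17 and 10.49 FPKM in WT replicates, with overlapping ranges. Its log2 fold change of 0.04 had a 95% interval of -0.44 to 0.53 (limma adjusted p = 0.915), the widest interval of the 9 tested members. Zeb1 (ENSMUSG00000024238, chromosome 18, 5591860 to 5775467, plus strand) shares its span with Gm10125, Gm22709 and Gm16147, none above 0.3 FPKM in any library.

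Zeb2, which is expressed in mesenchyme and also in macrophages, was decided by a single library. It had 4.33, 5.42 and 2.64 FPKM in knockout replicates 1, 2 and 3, against 2.44, 2.64 and 2.66 FPKM in WT replicates. Knockout replicates 1 and 2 lay above every WT library, and knockout replicate 3 lay within the WT range. The log2 fold change was 0.48 ± 0.20 (limma adjusted p = 0.161), and without knockout replicate 3 it was 0.71 (adjusted p = 0.00761). edgeR on the estimated counts gave an adjusted p of 0.0968 and DESeq2 gave 0.0193. The macrophage markers did not move as one in that library. Among the knockout libraries, 14 of the 27 markers were highest and 6 were lowest in replicate 3. Among the lowest were Ptprc, at 0.94, 1.1 and 0.49 FPKM in knockout replicates 1, 2 and 3, and Msr1, at 16.14, 15.57 and 11.45 FPKM, both picked out after their values were seen. Their summed level was 1996, 1783 and 2040 FPKM in knockout replicates 1, 2 and 3, of which Lyz2 made up 60.2%, 58.1% and 58.7%. The part of macrophage RNA in the Zeb2 values was not tested. Zeb2 (ENSMUSG00000026872, chromosome 2, 44983632 to 45117395, minus strand) overlaps Zeb2os on the other strand, at 1.11 ± 0.0702 FPKM in knockout cells and 1.17 ± 0.212 FPKM in WT cells (limma adjusted p = 0.822), and 4 short RNA genes, of which only Gm27761 was above 0.1 FPKM, at 3.94 ± 0.894 FPKM in knockout cells and 4.11 ± 0.517 FPKM in WT cells (adjusted p = 0.833). Whether counting used the strand is not stated, so reads of Zeb2 and Zeb2os cannot be told apart. The log2 ratio of Zeb2 to Zeb1, with 1 FPKM added to each, differed by 0.44 ± 0.22 (SE) between the genotypes (exact permutation test, p = 0.2). The Zeb sum was 13.6 ± 3.54 FPKM in knockout cells and 11.8 ± 2.12 FPKM in WT cells (exact permutation test, p = 0.6).

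Ebf1, which marrow stromal cells share with the B lineage, was lower in the knockout cells. Its level was 2.97, 3.23 and 2.81 FPKM in knockout replicates 1, 2 and 3, against 5.66, 6.76 and 5.56 FPKM in WT replicates. The groups did not overlap, and the ratio of the means was 0.501 (3.00 ± 0.212 FPKM in knockout cells, 5.99 ± 0.666 FPKM in WT cells, log2 fold change -0.80 ± 0.09, limma adjusted p = 0.00152). Ebf1 (ENSMUSG00000057098, chromosome 11, 44617317 to 45008091, plus strand) overlaps only Gm12158, which had no counts. Of 12 B lymphoid markers, 6 had no counts in any library, among them Cd79b and Ms4a1, and 8 stayed below 0.1 FPKM in every library. The only B lymphoid marker tested, Blnk, an adaptor also present in macrophages, passed the filter through the 3 knockout libraries alone, so only a higher call was open to it. It averaged 1.05 FPKM in knockout cells, against 0.633 FPKM in WT cells (limma adjusted p = 0.038), a call that was lost with any 1 library left out (adjusted p = 0.0587 to 0.128) and with the replicate number as a block (0.0893). Pax5, a B lineage factor below the filter and named after its values were seen, went the other way without overlap, at 0.13, 0.12 and 0.12 FPKM in knockout replicates 1, 2 and 3, against 0.36, 0.32 and 0.27 FPKM in WT replicates (edgeR adjusted p = 0.00427). With no filter, and in edgeR and DESeq2, 1 of the B lymphoid markers was called lower, against 0 in the filtered limma fit. The summed B lymphoid level, of which Blnk was the largest single part, was 1.28 to 1.36 FPKM in knockout libraries and 1.12 to 1.31 FPKM in WT libraries.

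Tcf21 (ENSMUSG00000045680, chromosome 10, 22817281 to 22820174, minus strand) was not measurable at this depth. It had no counts in the 3 knockout libraries, and in the WT libraries it had 4 estimated counts in replicates 1 and 3 and 0 in replicate 2. With about 4 estimated counts to a fragment, both groups were under a floor of 12 counts, or 3 fragments, summed over the group, so no comparison was made.

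**Figure D3:**
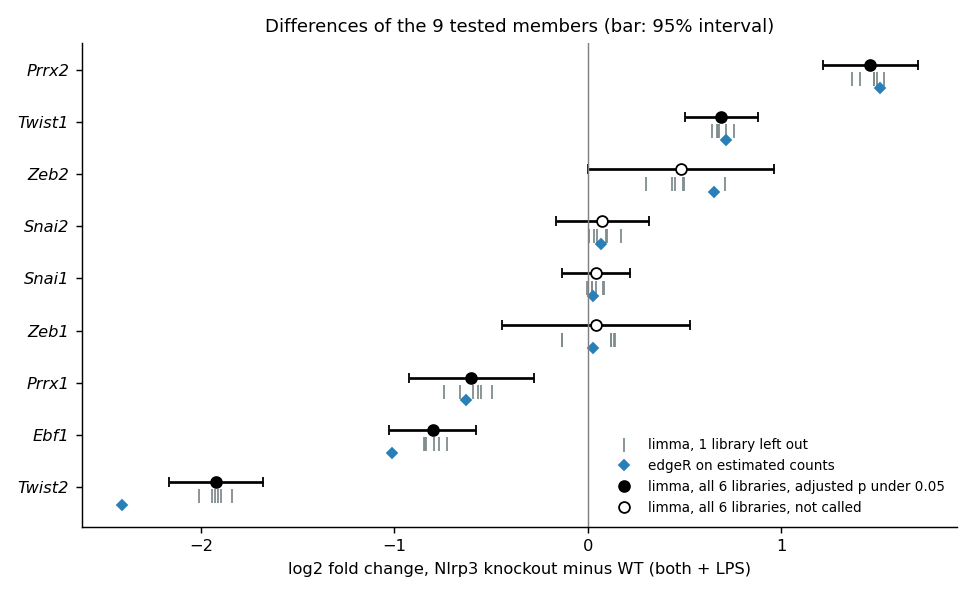
Log2 fold change of the 9 tested members (horizontal axis, Nlrp3 knockout minus WT, both with LPS) from limma with its 95% interval, filled where the adjusted p is below 0.05, with the values obtained with 1 library left out (grey ticks) and from edgeR (blue diamonds). The intervals of Prrx2, Twist1, Prrx1, Ebf1 and Twist2 clear 0, and that of Zeb2 ends at 0.

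The order of levels, read per kilobase in FPKM, changed between the genotypes. In knockout cells Snai1 (42.3) and Prrx2 (42.3) came first with overlapping values, followed by Snai2 (19.9), Twist1 (19.3) and Prrx1 (19.1), whose values also overlapped from one to the next. Then came Zeb1 (9.49), Zeb2 (4.13) and Ebf1 (3.00), of which Zeb2 and Ebf1 overlapped, and Twist2 (1.87) stood apart below them. In WT cells the order was Snai1 (41.1), Prrx1 (29.2), Snai2 (18.8), Prrx2 (14.7), Twist1 (11.6), Twist2 (9.82), Zeb1 (9.18), Ebf1 (5.99) and Zeb2 (2.58). In WT cells only Twist2 and Zeb1 overlapped as neighbours. Twist2 had a higher mean FPKM than 14.9% of the tested genes in knockout cells and than 63.6% in WT cells, and Prrx2 than 90.9% in knockout cells and 73.9% in WT cells.

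Close relatives of the members were examined next. Of 17 relatives only 4 passed the expression filter, and 5 had no counts in any library. Of the 4, 1 rose and 2 fell, 75% called against 19.6% of all tested genes. Ebf3, which acts with Ebf1 in marrow stromal cells, fell to 0.343 ± 0.0850 FPKM in knockout cells, against 2.64 ± 0.182 FPKM in WT cells (log2 fold change -1.44, limma adjusted p = 0.000112). Ebf2, a factor of adipocyte and bone precursors, fell to 0.00667 FPKM in knockout cells, against 1.17 ± 0.197 FPKM in WT cells (adjusted p = 0.000412), and its knockout libraries held 4, 0 and 6 estimated counts. Ebf2 and Ebf3 passed the expression filter through the 3 WT libraries alone, so they had to be lower in knockout cells to be called. Ebf4, below the filter in both genotypes, had 0.547 ± 0.165 FPKM in knockout cells and 0.470 ± 0.0100 FPKM in WT cells. Scx, the bHLH factor scleraxis of tendon, rose to 7.89 ± 1.29 FPKM in knockout cells, against 2.01 ± 0.331 FPKM in WT cells (1.56, adjusted p = 0.000389). Shox2, a homeobox factor of proximal limb, did not pass (23.2 ± 2.13 FPKM in knockout cells, 21.0 ± 1.04 FPKM in WT cells, adjusted p = 0.326).

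Hand2, a bHLH partner of the Twist factors in limb development, did not pass the filter, and it was picked out once its values had been seen. It had 0.90, 0.83 and 1.01 FPKM in knockout replicates 1, 2 and 3, from 150, 126 and 156 estimated counts, against 0, 0.02 and 0 FPKM in WT replicates, where replicate 2 alone had 4 estimated counts. The WT level was thus near 0 and the knockout level low (edgeR on the estimated counts, adjusted p = 0.00112).

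The list of bHLH partners held the E proteins and the Id proteins that capture them. Of its 7 tested genes 3 rose, namely Id1, Id2 and Id3, and none fell, 42.9% called against 19.6% of all tested genes. The median log2 fold change was 0.30. Id2 rose to 7.97 ± 0.855 FPKM in knockout cells, against 2.56 ± 0.143 FPKM in WT cells (1.33, limma adjusted p = 0.00017), Id1 to 20.0 ± 2.60 FPKM in knockout cells, against 8.54 ± 1.02 FPKM in WT cells (1.14, adjusted p = 0.00106), and Id3 to 96.2 ± 14.1 FPKM in knockout cells, against 69.1 ± 4.69 FPKM in WT cells (0.46, adjusted p = 0.037). Id3 was not called without knockout replicate 1 (adjusted p = 0.106) or without WT replicate 1, 2 or 3 (0.0712, 0.117 and 0.11), nor with TMM scaling of the FPKM (0.0558). Id4, whose log2 fold change was the median of the 7, reached the expression filter through the 3 knockout libraries alone. Only a higher call was thus open to Id4. It stood at 1.07 ± 0.0529 FPKM in knockout cells and 0.680 ± 0.125 FPKM in WT cells and did not pass (adjusted p = 0.0617). The E proteins Tcf3, Tcf4 and Tcf12 did not pass either (adjusted p = 0.490, 0.223 and 0.893). Of 13 tested corepressors and regulators of these factors 1 rose and 1 fell, 15.4% called against 19.6% of all tested genes, and without knockout replicate 3 the counts were 2 and 2. Zfp521, a zinc finger protein that binds Ebf1 and inhibits it, fell to 1.71 ± 0.159 FPKM in knockout cells, against 7.10 ± 2.15 FPKM in WT cells (-1.54, adjusted p = 0.00252). Ajuba, a LIM protein that works with Snail repressors, rose to 24.5 ± 1.42 FPKM in knockout cells, against 17.4 ± 0.348 FPKM in WT cells (0.47, adjusted p = 0.00316).

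Epithelial genes, the classical repression targets of the Snail, Zeb and Twist factors, were mostly below the filter in both genotypes. Of 20, only 4 passed the filter and 6 stayed below 0.1 FPKM in every library. Of the 4, 1 rose and 1 fell, 50% called against 19.6% of all tested genes. Cdh1 itself had 0.32, 0.22 and 0.18 FPKM in knockout replicates 1, 2 and 3, and 0.24, 0.29 and 0.11 FPKM in WT replicates, with overlapping ranges. Of the tested genes Krt19, a keratin, fell to 4.97 ± 1.06 FPKM in knockout cells, against 12.3 ± 1.05 FPKM in WT cells (-1.16, limma adjusted p = 0.00147). Pkp1, a desmosome plaque protein, rose to 1.06 ± 0.0100 FPKM in knockout cells, against 0.02 ± 0.01 FPKM in WT cells (1.01, adjusted p = 0.000246). It passed the filter through the 3 knockout libraries alone, just above 1 FPKM, so only a higher call was open to it. Cdh3 did not pass, at 13.5 ± 0.586 FPKM in knockout cells and 14.9 ± 0.176 FPKM in WT cells without overlap (adjusted p = 0.201). Krt8 did not pass either, at 0.733 ± 0.550 FPKM in knockout cells and 2.08 ± 1.39 FPKM in WT cells (adjusted p = 0.285).

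Genes of the mesenchymal state split in direction. Of 19 tested, 4 rose and 9 fell, 68.4% called against 19.6% of all tested genes, with a median log2 fold change of -0.28. With 1 library left out, 2 to 4 were called higher and 6 to 9 lower. Among those that fell, Col1a1 and Col1a2 lost the call with any library left out except knockout replicate 3. This list shares Pdgfra, Pdgfrb, Col1a1, Col1a2, Col3a1 and Cdh11 with the stromal markers above. All of these but Cdh11 fell and are counted in both lists, so the counts of the lists are not separate results. Pdgfra, a growth factor receptor of stromal precursors, fell to 2.96 ± 0.227 FPKM in knockout cells, against 30.2 ± 1.71 FPKM in WT cells (-2.98, limma adjusted p = 3.75e-06), and the fibrillin gene Fbn1 fell to 48.7 ± 4.92 FPKM in knockout cells, against 177 ± 14.2 FPKM in WT cells (-1.85, adjusted p = 5.69e-05). The matrix genes Tnc (-0.89) and Sparc (-0.85) also fell. Postn, which encodes periostin, rose to 199.08, 212.83 and 92.96 FPKM in knockout replicates 1, 2 and 3, against 48.95, 52.96 and 50.65 FPKM in WT replicates (1.62, adjusted p = 0.0115), with knockout replicate 3 nearest to WT, as it was for Zeb2. The fibronectin gene Fn1 (0.70, adjusted p = 0.0132), Mmp2 (0.54, adjusted p = 0.00217) and N-cadherin, Cdh2 (0.31, adjusted p = 0.044), rose as well. Fn1 missed the threshold when WT replicate 1 (adjusted p = 0.0639) or WT replicate 3 (0.0556) was left out. Cdh2 missed it with the replicate number as a block (0.0925), in edgeR (0.0564) and in 5 of 6 fits with 1 library left out (0.0678 to 0.139). Vim, the vimentin gene, stood at 300 ± 23.9 FPKM in knockout cells and 292 ± 23.6 FPKM in WT cells and did not pass (adjusted p = 0.83). In the same knockout libraries all 22 tested macrophage markers were higher, as given above, and the part of this in the mesenchymal genes was not tested.

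**Figure D4:**
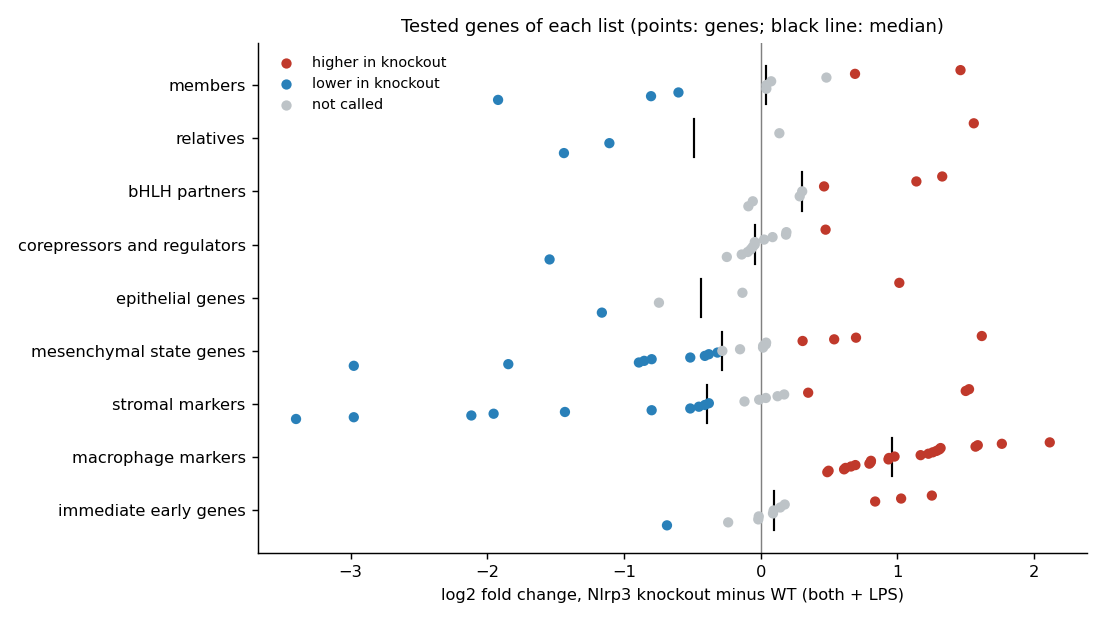
Log2 fold change (horizontal axis, Nlrp3 knockout minus WT, both with LPS) of the tested genes of each list (rows), in red where called higher, blue where called lower and grey where not called, with the median of each list as a black line. Members, relatives and mesenchymal state genes lie on both sides of 0, the called bHLH partners all lie above it, and so do all 22 tested macrophage markers.

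Immediate early, endothelial and granulocyte genes were examined last. Of 11 tested immediate early genes 3 rose and 1 fell, 36.4% called against 19.6% of all tested genes (median log2 fold change 0.09): Atf3 (1.25), Ier3 (1.03) and Dusp1 (0.84) rose and Zfp36 fell by 0.69 on the log2 scale, while Fos, Jun, Junb and Egr1 did not pass. Without knockout replicate 1, 2 of these genes were called lower. The summed level of the immediate early list did not overlap, at 421 to 519 FPKM in knockout libraries and 340 to 366 FPKM in WT libraries. Most of this gap lay in Ier3 alone. Ier3 had 167.1, 143.61 and 183.68 FPKM in knockout replicates 1, 2 and 3, against 81.8, 77.8 and 80.26 FPKM in WT replicates. The other tested genes were mostly uncalled, 7 of the 11 in all. None of 8 endothelial markers passed the expression filter, and their summed level was 0.16 to 0.31 FPKM in knockout libraries and 0.71 to 0.93 FPKM in WT libraries, without overlap. Most of this gap lay in Tek, at 0.02, 0 and 0 FPKM in knockout replicates 1, 2 and 3, against 0.59, 0.42 and 0.39 FPKM in WT replicates. Cdh5 and Cldn5 went the other way, with counts in knockout libraries only. Without the filter, 2 of the 8 endothelial markers were called lower and none higher, and DESeq2 called 2 lower and 1 higher. Of 10 granulocyte markers, 3 had no counts in any library and 5 stayed below 0.1 FPKM in every library. Only 3 were tested and all 3 were called, against 19.6% of all tested genes. S100a8 (1.60, tested through the knockout libraries alone) and Csf3r (1.44) rose and Camp fell by 0.87 on the log2 scale. Camp missed the threshold when WT replicate 1 (limma adjusted p = 0.0531) or WT replicate 3 (0.0517) was left out.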

How the data were processed

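Polyadenylated RNA of 6 libraries, 3 Nlrp3 knockout and 3 WT, all with LPS, was sequenced in pairs of reads with marking of the second strand, per the labels' protocols. Per the submitters' processing notes, the tools were StringTie 1.3.4d, HISAT2 2.0.4 and cutadapt 1.9, and the build was GRCm38. No source used here names the counting step, annotation release or filters. The authors deposited FPKM values to 2 decimals and estimated counts per gene, per the file headers. The estimated counts are whole numbers, of which 44.4% of those from 1 to 16 are multiples of 4 (25% if equally frequent), which points to about 4 counts per fragment, or 13.3 to 16.6 M fragments per library. Floors cover counting error only.

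The filter kept genes that reached 1 FPKM in 3 or more of the 6 libraries. Their log2(FPKM + 1) values went into limma 3.58.1 (R 4.3.3, intensity trend, genotype as the only term), with two-sided p-values adjusted by Benjamini-Hochberg across every tested gene and a threshold of 0.05. The fit was checked on simulated data. edgeR 4.0.16 and DESeq2 1.42.0 on the estimated counts, other pseudocounts, filters and scalings, the replicate number as a block and leaving out each library were alternatives. Single ratios and sums were compared by exact permutation. Titles give days 1 to 3 but the treatment label gives day 1 throughout, so the number was not taken as a pairing. The members, lists and tests were chosen with earlier results of these data known. Named genes are Nlrp3, the members, tested relatives, genes overlapping a member, and up to 4 called genes per direction of each other list. Others named were chosen after their values were seen. Sequences come from RefSeq (GRCm38.p6).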

Additional observations from a re-analysis of the deposited data

How the results depend on the processing

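Twist1, Twist2, Prrx2 and Ebf1 kept their direction and their call in all 15 alternatives each, with log2 fold changes of 0.64 to 0.76, -2.41 to -1.84, 1.37 to 1.53 and -1.01 to -0.72. These ranges pool limma at several pseudocounts with edgeR and DESeq2, which do not use the log2(FPKM + 1) scale. The ends of -2.41 for Twist2 and -1.01 for Ebf1 came from the count tests. Prrx1 had -0.74 to -0.50 with 1 library left out and -0.60 with the replicate block (adjusted p = 0.0626), and was called in 10 of 15 alternatives. Zeb2 was called by DESeq2 (0.66) and without knockout replicate 3, within a range of 0.30 to 0.71 with 1 library left out. The uncalled Snai1 and Zeb1 turned direction with 1 library left out (-0.000979 to 0.085 and -0.14 to 0.14), as did the ratio of Snai2 to Snai1 (-0.036 to 0.18). Over all genes, the number called lower was 1117, and was 1677 with DESeq2 and 721 to 1314 with 1 library left out (721 without WT replicate 1). The cause of these changes was not tested. The replicate block changed no other member's call. Same-numbered libraries had correlations of their deviations from the group means of 0.020, 0.168 and 0.096, and knockout replicate 1 did not correlate best with its own number. Depth limits Tcf21, and 3 libraries a group cannot reach an exact p below 0.1.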
